A study of Mus musculus with 2 samples.

Results

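Solute carriers are the largest group of membrane transport proteins in mammals, and their gene symbols begin with Slc and a family number. The genes described here are all mouse genes whose symbol starts with Slc and a digit and that held at least 200 unique molecular identifiers (UMIs, each standing for 1 captured transcript) summed over the study's libraries, without Slc2a1, Slc16a3, Slc7a2, Slc45a2, Slc40a1 and Slc11a1. That gave 172 genes of the 55450 annotated in the count matrices, 170 of them protein coding, from 42 families on 20 chromosomes. Of 379 genes with such a symbol, 176 reached 200 UMIs, 203 did not, and 55 had 0 UMIs. The summed UMI count chose these genes, so members were chosen by abundance, which is a description and not a finding. The members with the fewest UMIs were Slc22a21 with 201, Slc44a3 with 205 and Slc22a5 with 206, and the genes just under the limit were Slc2a5 with 193, Slc7a2 with 186 (also left out by name) and Slc19a2 with 175.

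The study profiled single CD45+ cells, the blood-derived cells, sorted from subcutaneous B16F10 tumours on day 10 after injection; B16F10 is a mouse melanoma cell line. One 10x 3' v3 library came from KO mice (strain label Lyz2-Cre-Kcnj2f/f), and one came from WT mice (Kcnj2f/f), so the floxed Kcnj2 allele is shared and only the KO mice carry the Cre. Each library pooled the cells of 3 mice. Lyz2-Cre is active in myeloid cells such as macrophages, monocytes and neutrophils, and Kcnj2 encodes the potassium channel Kir2.1, whose effect on the tumour environment was the study's question. Mouse age and sex are not given in the labels.

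Solute carriers move amino acids, sugars, nucleosides, metals, ions and cofactors across the plasma membrane and across the membranes of lysosomes, the Golgi apparatus and mitochondria. Some work alone, some only as pairs: Slc3a2, the CD98 heavy chain, brings light chains such as Slc7a5, Slc7a8 and Slc7a11 to the cell surface. In immune cells they set nutrient uptake, cystine supply for glutathione, lysosomal export and the zinc and iron balance, and macrophages, dendritic cells and lymphocytes are known to use different carriers.

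Because each genotype is 1 library, no test between KO and WT is possible and none was made. Every level is the sum of UMIs over the cells of a class in a library, per 1000000 UMIs of those cells (CPM), and intervals are exact 95% intervals that cover counting error only, not the spread between mice. With 3' UMI counts each transcript gives at most 1 end, so CPM values were not scaled by gene length. Other differences in capture between genes were not tested. KO and WT are set side by side as a log2 ratio of CPM values. A member is called higher or lower in KO where the ratio passes 0.5 on the log2 scale with its interval wholly on that side of 0, among genes with at least 20 UMIs in that class. Such a call compares 2 libraries, not 2 genotypes.

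The KO library held 6356 barcodes and 57047535 UMIs, and the WT library 9677 barcodes and 55219440 UMIs, with medians of 6826.5 and 3951 UMIs per barcode. After filters 5682 KO and 8935 WT cells were kept, and 63 barcode sequences occurred in both libraries. Clusters were named "-like" from marker lists, with every Slc gene left out of the clustering, and 736 KO cells and 2451 WT cells, 12.95% and 27.4%, stayed unnamed. Every marker of a class's own list was detected in that class in both libraries, except 1 fibroblast marker in KO. The 10 classes with at least 100 cells in each library were set against each other between KO and WT: cells like macrophages, monocytes, cDC1, cDC2, migratory DC, pDC (DC, dendritic cell; c, conventional; p, plasmacytoid), B cells, NK cells, CD4 T cells and CD8 T cells. Cells differed in depth: macrophage-like cells had a median of 10212 UMIs in KO and 8848 UMIs in WT, and cDC2-like cells 13718 in KO and 11214 in WT. Markers of other cell types also differed between the libraries. The summed level of the 7 T cell markers in macrophage-like cells was 38.01 CPM in KO against 211 CPM in WT, and in monocyte-like cells 32.1 CPM in KO against 367 CPM in WT. For scale, CD8 T cell-like cells had 6466 CPM in KO against 7121 CPM in WT.

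The 172 genes held 570054 UMIs, 298854 in KO and 271200 in WT, out of 594858 UMIs of all Slc genes. They were unevenly used: the median gene had 1511 UMIs, the top gene alone held 9.47% of the UMIs and the top 15 held 53.4%. By role, the 36 mitochondrial carriers took 34.7% of the UMIs and the 22 carriers of amino acids, taurine, GABA and creatine took 25.2%. The 21 nucleotide sugar and other Golgi or endoplasmic reticulum carriers took 6.72%, the 22 metal carriers 6.19%, the 6 peptide and lysosomal or vesicular carriers 4.87%, and the 11 carriers of sugars, sugar phosphates and polyols 3.90%. In total 32 of the 172 genes overlap another coding gene, 4 of them on the same strand; Slc5a3 shares its strand with Mrps6, so some of its UMIs may belong to that gene.

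Among the mitochondrial carriers, Slc25a3 (the phosphate carrier) and Slc25a5 (an ADP/ATP carrier) led all members with 53983 and 53365 UMIs. Slc25a3 was even across the compared classes, between 301.6 CPM in KO against 298.1 CPM in WT pDC-like cells at the low end and 551 CPM in KO against 504.5 CPM in WT migratory DC-like cells at the high end. Slc25a5 ranged more widely, with 623 CPM in KO against 676 CPM in WT monocyte-like cells and 233 CPM in KO against 228 CPM in WT migratory DC-like cells. Slc25a4, the other ADP/ATP carrier among the top 15, was low in macrophage-like cells at 81.9 CPM in KO against 86.6 CPM in WT, and reached 193 CPM in KO against 237 CPM in WT CD8 T cell-like cells. In WT melanoma-like cells, which carry pigment-cell markers despite the CD45 sort (62 cells; the KO library had 43, too few for a level), the 3 genes stood at 1167, 1106 and 1128 CPM. Slc25a11, the oxoglutarate carrier, lay between 34.3 CPM in KO against 38.99 CPM in WT B cell-like cells and 102 CPM in KO against 111 CPM in WT migratory DC-like cells.

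**Figure D1:**
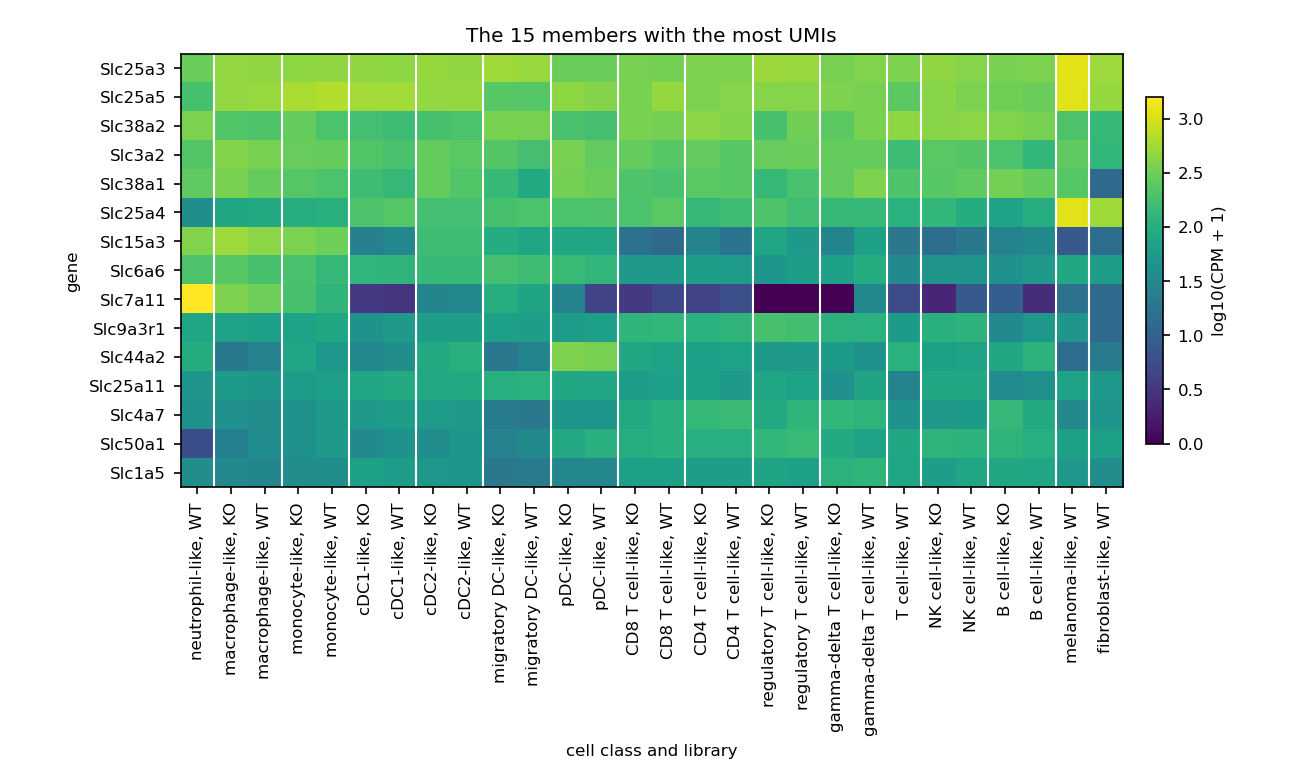
Heat map of the 15 members with the most UMIs (rows) in each class and library with at least 50 cells (columns, KO left of WT); the colour is log10(CPM + 1). Slc25a3 is nearly flat over the immune classes, while Slc15a3 and Slc7a11 are highest in neutrophil-, macrophage- and monocyte-like cells and Slc44a2 in pDC-like cells.

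The amino acid carriers were the second most abundant group. Slc38a2 and Slc38a1, sodium-coupled importers of glutamine and other neutral amino acids, were spread differently over the classes. Slc38a2 had 435 CPM in KO against 401 CPM in WT CD4 T cell-like cells and only 176 CPM in KO against 155 CPM in WT cDC1-like cells. Slc38a1 was high in macrophage-like cells at 354 CPM in KO against 279 CPM in WT, and in pDC-like cells at 340.2 CPM in KO against 303 CPM in WT. Slc3a2 stood at 402 CPM in KO against 347 CPM in WT macrophage-like cells and was at 131 CPM or more in every class with a level. Slc6a6, the taurine transporter, was at 234 CPM in KO against 184 CPM in WT macrophage-like cells and at 44.7 CPM in KO against 44.6 CPM in WT NK cell-like cells.

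Slc7a11, the cystine and glutamate exchanger xCT, belonged mainly to phagocytes. It reached 1611 CPM (95% interval 1491 to 1738) in the 142 WT neutrophil-like cells. The KO library held 24 such cells, too few for a level. Macrophage-like cells had 384 CPM in KO against 314 CPM in WT, monocyte-like cells 184 CPM in KO against 124 CPM in WT, and migratory DC-like cells 96.3 CPM in KO against 73.7 CPM in WT. In cDC1-like cells Slc7a11 was at 2.51 CPM in KO against 2.11 CPM in WT, and regulatory T cell-like cells had 0 UMIs in both libraries, with interval ends of 4.60 CPM in KO and 9.57 CPM in WT. The amino acid group as a whole summed to 2034 CPM in KO against 1672 CPM in WT macrophage-like cells, 1499 CPM in KO against 1233 CPM in WT monocyte-like cells and 2917 CPM in WT neutrophil-like cells, with 932 CPM in KO against 828 CPM in WT cDC1-like cells at the low end of the compared classes.

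Slc15a3, a lysosomal carrier of histidine and peptides, was at 537 CPM in KO against 444 CPM in WT macrophage-like cells, 368 CPM in KO against 310 CPM in WT monocyte-like cells and 397 CPM in WT neutrophil-like cells. It was low in some other classes, with 23.9 CPM in KO against 29.6 CPM in WT cDC1-like cells. CD8 T cell-like cells had 14.99 CPM in KO against 11.8 CPM in WT. Slc15a3 was not confined to phagocytes. It was not among the 3 members farthest above other lineages in macrophage- or monocyte-like cells, whose smallest margins were 4.11 and 2.36 times. Slc29a3, the lysosomal nucleoside exporter and no member of the top 15, had its highest level in pDC-like cells, 183 CPM in KO against 147 CPM in WT.

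Other members of the top 15 marked lymphoid or plasmacytoid cells. Slc44a2, a choline transporter-like protein, stood at 381 CPM in KO against 348 CPM in WT pDC-like cells and 18.5 CPM in KO against 25.4 CPM in WT macrophage-like cells. Slc4a7, a sodium bicarbonate cotransporter, was at 135 CPM in KO against 150 CPM in WT CD4 T cell-like cells and at 19.9 CPM in KO against 17.98 CPM in WT migratory DC-like cells. Slc9a3r1, which encodes the scaffold protein NHERF1 and no carrier, was highest in regulatory T cell-like cells, at 186 CPM in KO against 169 CPM in WT. Slc50a1, a sugar exporter, was at 120 CPM in KO against 118 CPM in WT NK cell-like cells and at 22.99 CPM in KO against 35.4 CPM in WT macrophage-like cells. Slc1a5, an importer of glutamine and other neutral amino acids, was at 83.1 CPM in KO against 74.9 CPM in WT B cell-like cells and at 17.5 CPM in KO against 19.5 CPM in WT migratory DC-like cells.

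Each member was next assigned to the lineage in which its class level, averaged over the KO and WT libraries, was highest. T and NK cells led for 74 members, dendritic cells for 32, mononuclear phagocytes (macrophage- and monocyte-like cells) for 31, pDC-like cells for 24 and B cell-like cells for 11. Taken library by library, the same lineage led in KO and WT for 129 of the 172 members, and the same class for 90. A clear margin was rarer: 45 members were at least 2-fold above every other lineage and 9 at least 5-fold. The T and NK count joins CD8, CD4, regulatory and gamma-delta T cell-like and NK cell-like cells, more classes than any other lineage. Of its 74 members, 32 were led by gamma-delta and 18 by regulatory T cell-like cells, both small classes. Classes without a level in both libraries, such as neutrophil-like cells, did not enter, and the leads of all genes were not counted. In gamma-delta T cell-like cells (52 KO cells, 65 WT cells), 99 members in KO and 95 in WT had 3 UMIs or fewer, so leads of that class rest on few UMIs.

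The leads are given next by role, as counts without a share of all genes beside them. Of 22 amino acid, taurine, GABA and creatine carriers, 11 were led by mononuclear phagocytes, 8 by T and NK cells, 2 by pDC-like cells, 1 by B cell-like cells and 0 by dendritic cells. Of 36 mitochondrial carriers, 17 were led by T and NK cells and 13 by dendritic cells. Of 22 metal carriers, 8 were led by T and NK cells, 7 by pDC-like cells, 4 by dendritic cells and 3 by mononuclear phagocytes. Summed levels set pDC-like cells apart for choline and haem carriers, at 466 CPM in KO against 418 CPM in WT, and for fatty acid carriers, at 94.5 CPM in KO against 70.7 CPM in WT, which come mainly from Slc44a2 and Slc27a1.

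**Figure D2:**
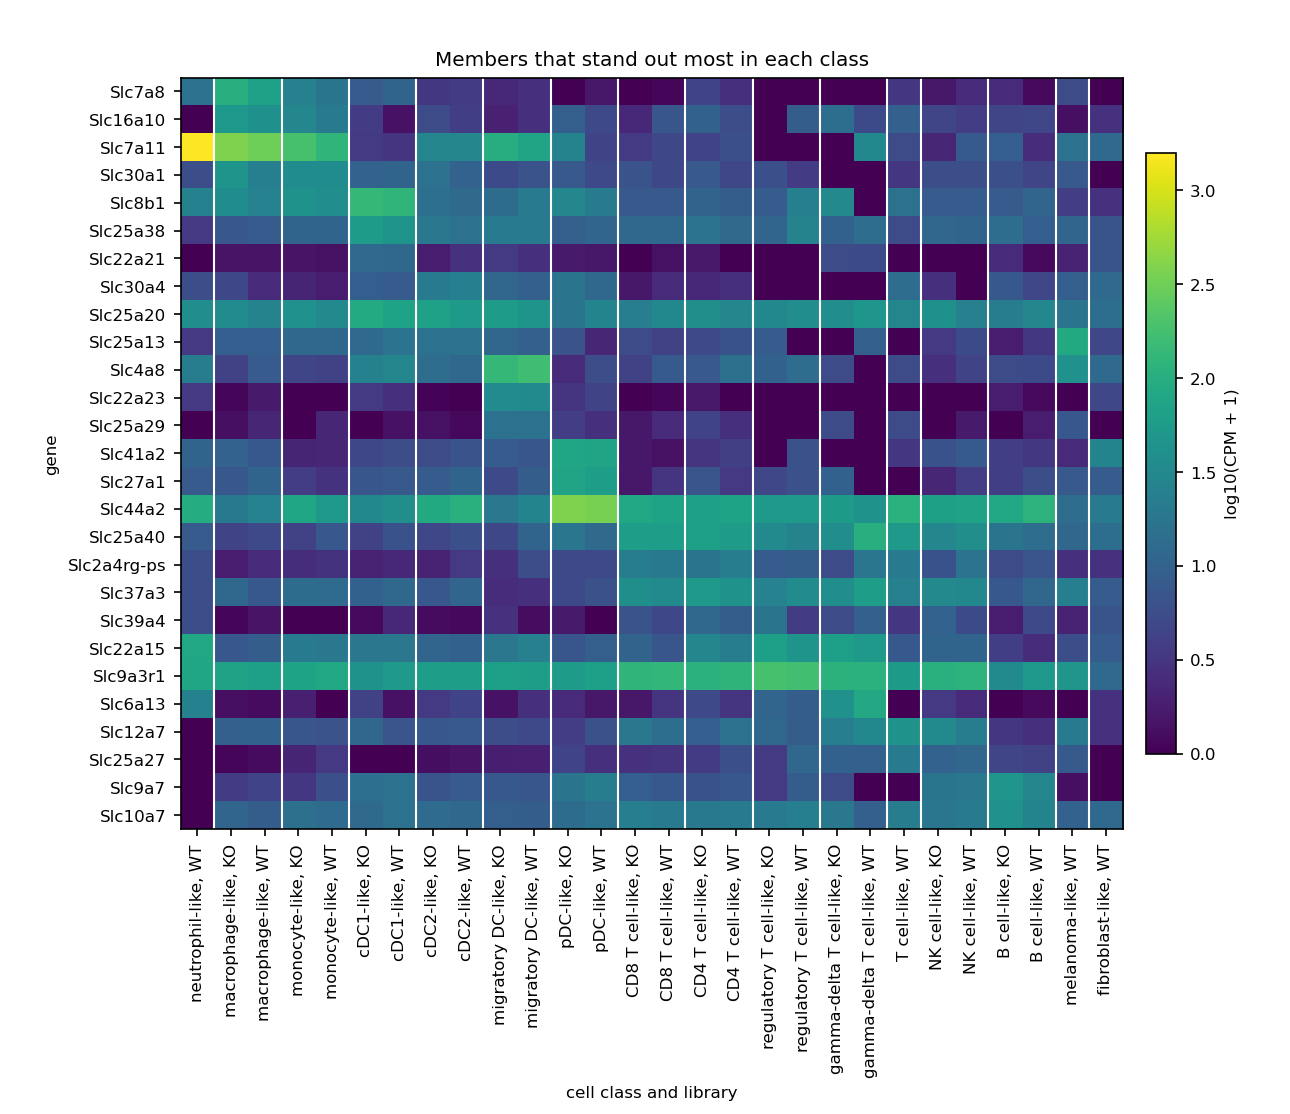
Heat map of the members with the highest ratio of a class's level to the highest level in any other lineage, up to 3 per class (rows), in each class and library (columns, KO left of WT); the colour is log10(CPM + 1). Slc7a8 stands out in macrophage-like cells, Slc4a8 and Slc22a23 in migratory DC-like cells and Slc41a2 and Slc27a1 in pDC-like cells, in both libraries. Classes without a level in both libraries, such as neutrophil-like cells, did not enter the ratio.

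Margins over other lineages count only classes with a level in both libraries, so neutrophil-like cells are left out. On that basis the members of macrophage-like cells farthest above other lineages were Slc7a8, Slc16a10 and Slc7a11. Slc7a11 was higher still in WT neutrophil-like cells, as given above. Slc7a8, a light chain of Slc3a2 that exchanges large and small neutral amino acids, had 100.3 CPM in KO against 66.7 CPM in WT, 9.80 times the 8.52 CPM mean of cDC1-like cells, the highest class of any other lineage. Slc16a10, a transporter of aromatic amino acids, had 50.4 CPM in KO against 39.9 CPM in WT, 5.11 times the highest class of any other lineage. Monocyte-like cells, which belong to the same lineage, shared Slc16a10 and Slc7a8 at lower levels, 29.5 CPM in KO against 19.7 CPM in WT for the first and 23.8 CPM in KO against 16.5 CPM in WT for the second. The leading member of monocyte-like cells was Slc30a1, the plasma membrane zinc exporter, with 35.3 CPM in KO against 35.02 CPM in WT.

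The dendritic classes used different members. In migratory DC-like cells Slc4a8, a sodium-driven chloride and bicarbonate exchanger, had 134 CPM in KO against 164 CPM in WT, 13.7 times the next lineage. Slc4a8 was among the leading genes of cluster 18 of this class (153 KO cells, 129 WT cells). That cluster had a median of 2213.5 UMIs, against 12029 and 10447 UMIs in the class's clusters 13 and 14. Slc22a23, an organic ion transporter family member of unknown substrate, had 33.8 CPM in KO against 32.7 CPM in WT, 11.9 times the next lineage. Slc25a29, a mitochondrial carrier of basic amino acids, had 15.2 CPM in KO against 15.03 CPM in WT there. In cDC1-like cells Slc8b1, the mitochondrial sodium and calcium exchanger, had 133 CPM in KO against 124 CPM in WT, 3.32 times the next lineage, and Slc25a38, the mitochondrial glycine carrier needed for haem synthesis, had 57.2 CPM in KO against 44.3 CPM in WT. Slc22a21, a carnitine transporter, had 11.5 CPM in KO against 10.98 CPM in WT cDC1-like cells. It was among the leading genes of cluster 23 of that class (88 KO cells, 60 WT cells). That cluster had a median of 2654 UMIs, against 17164 UMIs in cluster 15. The cDC2-like cells had no member with a margin of 2-fold over other lineages: Slc30a4, a zinc transporter, led by 1.60 times at 20.6 CPM in KO against 22.8 CPM in WT, ahead of Slc25a20, the carnitine and acylcarnitine carrier, and Slc25a13, an aspartate and glutamate carrier.

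In pDC-like cells Slc41a2, a magnesium transporter, had 76.6 CPM in KO against 72.5 CPM in WT, 9.34 times the next lineage. Slc27a1, a fatty acid transport protein, had 72.5 CPM in KO against 60.1 CPM in WT, 7.60 times the next lineage, and Slc44a2 was 3.70 times the next lineage. Lymphoid classes shared their leaders. Slc25a40, a mitochondrial carrier linked to glutathione import, had 59.3 CPM in KO against 60.6 CPM in WT CD8 T cell-like cells and 62.5 CPM in KO against 56.9 CPM in WT CD4 T cell-like cells, 4.12 and 4.11 times the next lineage. Slc37a3, of the sugar phosphate exchanger family, was among the leaders of all 4 T cell classes of that step, with 51.8 CPM in KO against 43.6 CPM in WT CD4 T cell-like cells. The pseudogene Slc2a4rg-ps followed in CD8 T cell-like cells with 21.9 CPM in KO against 18.9 CPM in WT. The zinc importer Slc39a4 was low, with 39 UMIs in CD4 T cell-like and 21 UMIs in NK cell-like cells over both libraries.

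Slc22a15, of the organic ion transporter family, led in regulatory T cell-like cells with 63.6 CPM in KO against 44.1 CPM in WT, 2.62 times the next lineage. The largest margin of all, 21.2 times for the GABA transporter Slc6a13 in gamma-delta T cell-like cells, rests on 9 UMIs in KO (40.3 CPM) and 20 UMIs in WT (85.5 CPM), and 88.9% of the KO UMIs came from 5 cells. In NK cell-like cells Slc12a7, a potassium chloride cotransporter, had 32.05 CPM in KO against 21.6 CPM in WT, 3.08 times the next lineage, and Slc25a27, of the uncoupling protein family, had 9.07 CPM in KO against 10.4 CPM in WT. In B cell-like cells Slc9a7, a sodium proton exchanger of the Golgi apparatus, had 45.9 CPM in KO against 28.04 CPM in WT, and Slc10a7, another Golgi protein, had 40.8 CPM in KO against 27.1 CPM in WT.

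Free RNA of lysed cells can place UMIs in cells that do not express a gene. Slc24a5, a melanosome exchanger of pigment cells named here after its values were seen, had 641 CPM in WT melanoma-like cells and between 3.69 and 17.9 CPM in the 12 immune classes with a level in KO, and 3.93 to 19.6 CPM in those with one in WT, for example 5.04 CPM in KO against 7.89 CPM in WT macrophage-like cells. The 7 melanoma markers summed to 16414 CPM in WT melanoma-like cells and to 72.5 CPM in WT macrophage-like cells. That is a smaller part of the melanoma-like level than Slc24a5 had in macrophage-like cells. The part of free RNA in the Slc24a5 levels of immune classes was not tested. Nor was it tested for levels of a few CPM of other members outside their main lineage.

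Between the libraries, macrophage-like cells showed more members called higher than lower in KO. Of 153 members with at least 20 UMIs, 17 (11.1%) were called higher in KO and 6 (3.92%) lower, where 6.46% of all 11104 genes tested were called higher and 6.14% lower. The members' median log2 ratio was 0.08, against 0.01 over all genes tested. In monocyte-like cells 16 of 143 members (11.2%) were called higher and 6 (4.20%) lower, against 6.01% and 6.41% of 9920 genes, with a median of 0.13 against 0.00. The whole set summed to 5883 CPM in KO against 5268 CPM in WT macrophage-like cells and to 5452 CPM in KO against 5000.2 CPM in WT monocyte-like cells. Cluster 26 was the smaller of the 2 clusters of the macrophage-like class (55 KO cells, 69 WT cells). Without it 15 of 153 members were higher and 5 lower, against 6.57% and 5.64% of all genes. At a log2 limit of 1 macrophage-like cells had 2 members higher and 4 lower, against 1.94% and 3.02% of all genes.

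**Figure D3:**
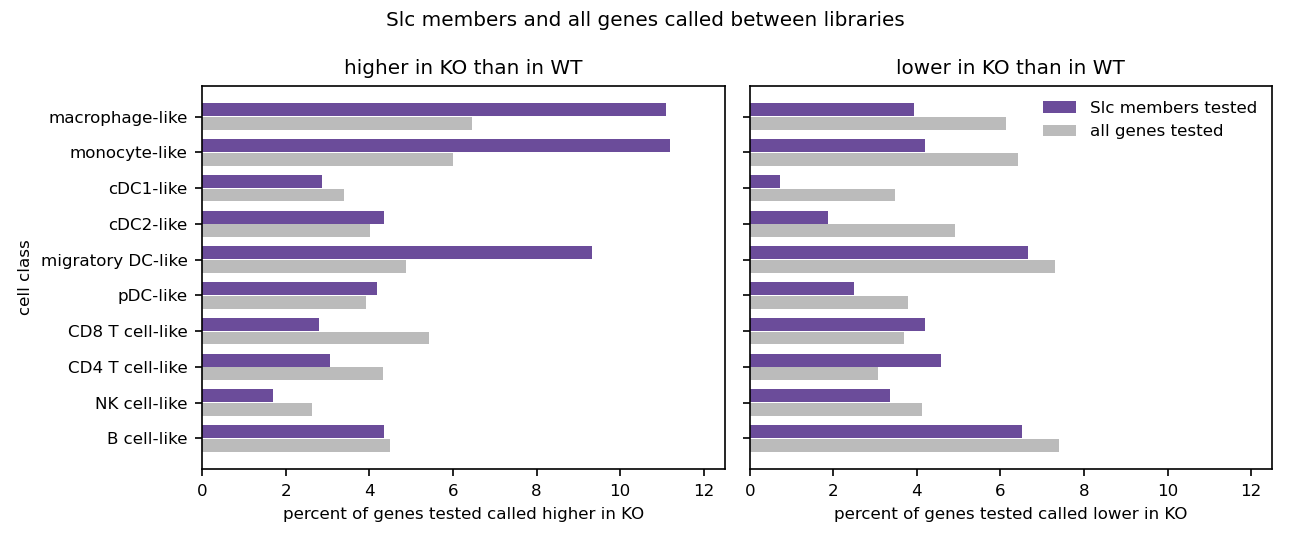
Share of the members called higher and lower in KO in each of the 10 compared classes, in percent of members tested, beside the same share of all genes tested. Macrophage-like (11.1% of members, 6.46% of all genes), monocyte-like (11.2% and 6.01%) and migratory DC-like cells (9.33% and 4.88%) have a larger share of members than of all genes called higher.

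The macrophage- and monocyte-like classes also differed between the libraries in marker levels. In macrophage-like cells the 10 macrophage markers summed to 4978 CPM in KO against 5993 CPM in WT, the 7 monocyte markers to 4799 CPM in KO against 3916 CPM in WT, the 6 neutrophil markers to 80.5 CPM in KO against 157 CPM in WT and the 6 B cell markers to 9.50 CPM in KO against 131 CPM in WT. In monocyte-like cells the monocyte markers summed to 8447 CPM in KO against 6335 CPM in WT. No marker of these classes' own lists was at 0. The part of these differences, and of the T cell markers given above, in the ratios of the members was not tested. In pooled sums of this kind, fewer cells expressing a gene and less RNA per cell cannot be told apart.

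Kcnj2 itself had 84 UMIs in KO and 93 UMIs in WT macrophage-like cells, 9.85 CPM and 22.2 CPM, a log2 ratio of -1.17 (-1.62 to -0.73). Monocyte-like cells had 12 UMIs in KO and 28 UMIs in WT, 2.77 CPM and 11.02 CPM, a ratio of -1.99 (-3.10 to -0.97). It was thus lower but present in KO; which part of the gene the Cre removes is not given in the labels, so a 3' tag is a limited check of the deletion.

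Among the metal carriers, Slc30a1 had the largest log2 ratio in macrophage-like cells of the members at a mean of at least 20 CPM. It had 44.8 CPM (382 UMIs) in KO against 22.96 CPM (96 UMIs) in WT, a log2 ratio of 0.96 (0.64 to 1.30). The KO level lay above, and the WT level below, the 35.3 CPM in KO against 35.02 CPM in WT monocyte-like cells. Within cluster 3, the main macrophage-like cluster, the levels were 45.9 CPM in KO against 24.5 CPM in WT. Slc30a4 was also called, at 3.87 CPM (33 UMIs) in KO against 1.44 CPM (6 UMIs) in WT, and the other 19 metal carriers tested were not.

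Slc30a1 is known to be induced by zinc through the factor MTF-1 and metal response elements, so its start region is shown; so are those of Slc7a11, whose induction by amino acid shortage through ATF4 is well studied, and Slc36a1, a proton-coupled amino acid exporter of the lysosome, in which a motif of lysosomal genes occurs. Each is 300 bases from RefSeq on GRCm38.p6, from 250 before to 50 after the annotated start in the gene's own direction, and capitals mark the matches to the motif named for it, read on both strands.
Slc30a1: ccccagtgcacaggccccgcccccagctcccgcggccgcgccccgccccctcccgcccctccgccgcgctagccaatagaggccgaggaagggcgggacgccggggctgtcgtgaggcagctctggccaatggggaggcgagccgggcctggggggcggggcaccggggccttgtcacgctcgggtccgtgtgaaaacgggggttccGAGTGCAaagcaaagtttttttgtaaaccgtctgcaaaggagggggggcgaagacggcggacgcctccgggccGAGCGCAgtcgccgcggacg
Slc7a11: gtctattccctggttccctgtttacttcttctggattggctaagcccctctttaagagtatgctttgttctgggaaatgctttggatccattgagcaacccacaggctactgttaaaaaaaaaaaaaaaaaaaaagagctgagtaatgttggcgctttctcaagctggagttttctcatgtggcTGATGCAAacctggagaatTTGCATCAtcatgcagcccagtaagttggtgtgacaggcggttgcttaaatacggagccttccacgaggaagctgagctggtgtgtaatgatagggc
Slc36a1: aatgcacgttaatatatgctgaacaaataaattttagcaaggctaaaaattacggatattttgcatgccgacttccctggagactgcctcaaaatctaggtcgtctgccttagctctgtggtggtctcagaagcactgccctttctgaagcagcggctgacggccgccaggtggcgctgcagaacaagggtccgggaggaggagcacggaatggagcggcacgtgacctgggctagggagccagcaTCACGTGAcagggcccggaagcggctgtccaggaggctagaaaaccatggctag

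The Slc30a1 window lies at chr1:191906531-191906830 on the plus strand, that of Slc7a11 at chr3:50443564-50443863 on the minus strand, and that of Slc36a1 at chr11:55204090-55204389 on the plus strand. Slc30a1 holds 2 matches of the core metal response element TGCNCNC, starting at positions -43 and 31 from the start site, both on the opposite strand. That short core is common: it occurs in 53.6% of the 27025 genes with a window and in 79 of the 127 members with one (62.2%). The amino acid response element TGATGNAA occurs at -66 and, on the opposite strand, at -47 in Slc7a11; it is held by 4.51% of all genes and by 4 members (3.15%), Slc50a1, Slc7a11, Slc7a7 and Slc9a9. The palindrome TCACGTGA of the lysosomal gene network occurs once, at -4, in Slc36a1, where it overlaps a match of the antioxidant element. It is held by 1.12% of all genes and by 4 members, Slc25a36, Slc35a5, Slc36a1 and Slc37a3. In macrophage-like cells Slc36a1 and Slc37a3 were called higher in KO, while Slc25a36 had 25.2 CPM in KO against 33.2 CPM in WT and Slc35a5 9.74 CPM in KO against 10.5 CPM in WT, both not called. The other motifs searched were the antioxidant response element TGACNNNGC (24.4% of members and 13.99% of all genes), the PU.1 site GAGGAAGT (3.15% and 3.69%) and the interferon-stimulated response element (1.57% and 3.99%). A match of letters is a description of the window and no evidence of binding.

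In macrophage-like cells no other gene of the zinc response was called higher. Of the zinc response list, 0 of 3 tested genes were called higher and 1 lower: the metallothionein Mt2 had 26.2 CPM in KO against 61.2 CPM in WT, and Mt1 had 641 CPM in KO against 874 CPM in WT, not called. In monocyte-like cells Mtf1, the zinc-sensing factor, was called higher at 23.8 CPM in KO against 15.7 CPM in WT. Other classes were mixed. In cDC2-like cells, where Slc30a1 was called higher too, Mt1 and Mt2 were called higher, 2 of 3 genes tested. Mt1 and Mt2 were also called higher in CD4 T cell-like cells and Mt1 in pDC-like cells. Mt2 was called lower in cDC1-like cells and, with Mt3, in CD8 T cell-like cells.

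Of the amino acid carriers in macrophage-like cells, 4 of 20 were called higher and 1 lower, with a group median log2 ratio of 0.34. Slc7a8, at 855 UMIs in KO and 279 UMIs in WT, had the 100.3 CPM and 66.7 CPM given above and a log2 ratio of 0.59 (0.39 to 0.79). Slc43a2, a carrier of large neutral amino acids, had 102 CPM in KO against 67.7 CPM in WT, also 0.59 (0.39 to 0.79). Slc38a6 and Slc36a1 were called at lower levels, the second at 12.4 CPM (106 UMIs) in KO against 8.37 CPM (35 UMIs) in WT with an interval that begins at 0.01. Slc6a8, the creatine transporter, was lower at 3.99 CPM in KO against 8.37 CPM in WT. Slc7a11 was not called in macrophage-like cells.

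In monocyte-like cells 3 of 19 amino acid carriers were called higher and 0 lower, with a median of 0.20. Slc7a11 had 184 CPM (797 UMIs) in KO against 124 CPM (316 UMIs) in WT, a log2 ratio of 0.56 (0.37 to 0.76). Slc38a2 had 278 CPM in KO against 194 CPM in WT, 0.52 (0.36 to 0.67), and Slc16a10 had 0.59 (0.10 to 1.09). The lists of genes that answer to ATF4 and NRF2, which both act on Slc7a11, were mixed. Of the ATF4 amino acid response genes, 0 of 13 were called in macrophage-like cells, and in monocyte-like cells Aars was called higher and Phgdh lower of 12. Of the NRF2 response genes, 0 of 10 were called higher in macrophage-like cells and 3 lower: Hmox1 at 674 CPM in KO against 1185 CPM in WT, Prdx1 at 629 CPM in KO against 913 CPM in WT and Gclm at 24.4 CPM in KO against 51.7 CPM in WT. In monocyte-like cells 1 of 10 was called higher, G6pdx, and 1 lower, Hmox1.

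**Figure D4:**
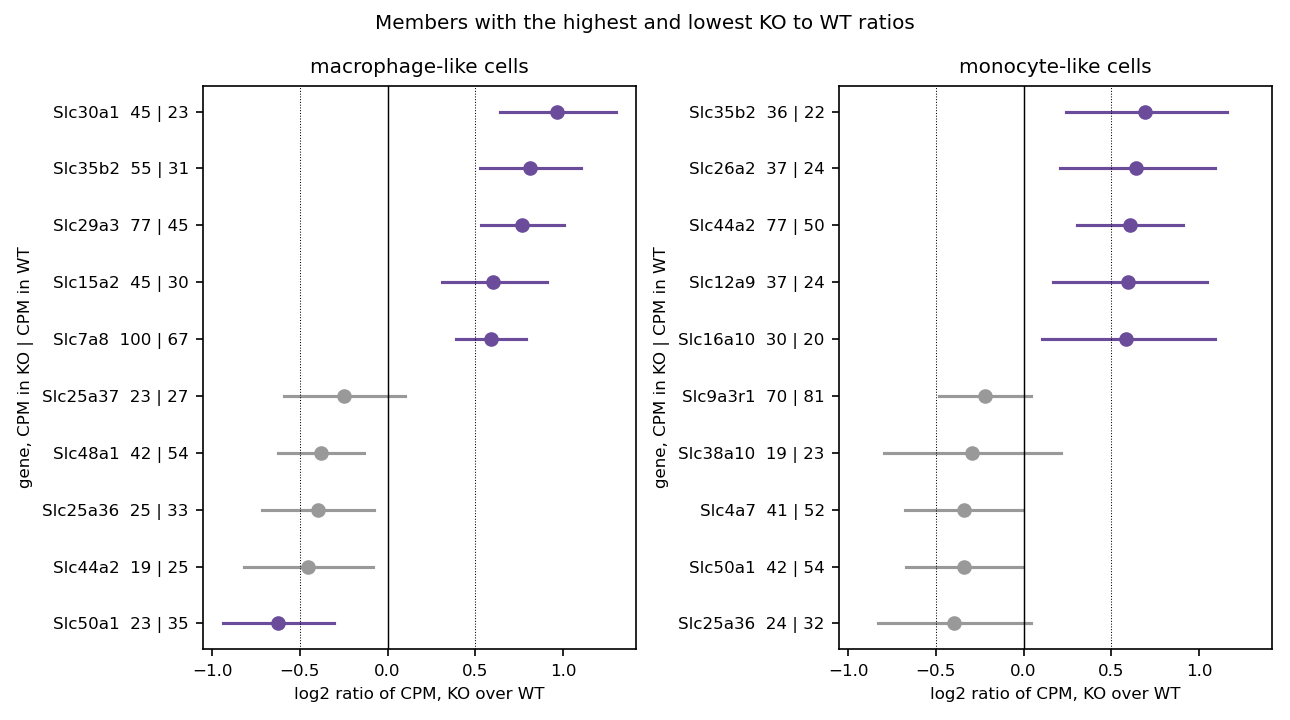
Log2 ratio of KO over WT CPM for the 5 highest and 5 lowest members at a mean of at least 20 CPM in macrophage-like (left) and monocyte-like cells (right), with CPM in KO and WT beside each name; bars are exact 95% counting intervals, purple marks called and grey not called. In macrophage-like cells Slc30a1 is at 0.96 and Slc50a1 at -0.62, and in monocyte-like cells Slc35b2 is at 0.69.

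In macrophage-like cells 1 of 20 Golgi and endoplasmic reticulum carriers was called higher and 1 lower, 1 of 4 nucleoside and nucleobase carriers higher and 1 lower, and 1 of 6 peptide and lysosomal carriers higher and 0 lower. Slc35b2, which brings the sulfate donor PAPS into the Golgi, had 54.9 CPM (468 UMIs) in KO against 31.3 CPM (131 UMIs) in WT, a log2 ratio of 0.81 (0.53 to 1.10). It was also called in monocyte-like cells, with 35.5 CPM in KO against 22.03 CPM in WT, 0.69 (0.24 to 1.16). Slc35b3, the second PAPS carrier, went the other way in macrophage-like cells at 9.74 CPM in KO against 14.4 CPM in WT, -0.56 (-1.06 to -0.06). Slc29a3 had 77.2 CPM (658 UMIs) in KO against 45.4 CPM (190 UMIs) in WT, 0.76 (0.53 to 1.005), and Slc15a2, a proton-coupled peptide importer, had 45.05 CPM (384 UMIs) in KO against 29.7 CPM (124 UMIs) in WT, 0.60 (0.31 to 0.91).

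The phosphate importers split: Slc20a1 had 63.9 CPM in KO against 44.7 CPM in WT macrophage-like cells, a log2 ratio of 0.52 (0.27 to 0.76), and Slc20a2 2.23 CPM in KO against 5.26 CPM in WT, -1.24 (-2.21 to -0.29). Of the sugar and polyol carriers Slc37a3 and the myo-inositol carrier Slc5a3 were called higher of 11, and Slc50a1, a sugar exporter, lower at 22.99 CPM (196 UMIs) in KO against 35.4 CPM (148 UMIs) in WT, -0.62 (-0.94 to -0.30). Only 2 of 31 mitochondrial carriers were called, Slc25a25 and Slc25a12, both higher. The remaining calls were Slc27a4, Slc16a7 and Slc4a11, higher, and Slc43a3 and Slc4a8, lower, each under 10 CPM in both libraries. Among members that were not called, Slc48a1, the haem transporter of the phagolysosome, had 41.5 CPM in KO against 54.1 CPM in WT; within cluster 3 it had 39.2 CPM in KO against 39.1 CPM in WT, and in cluster 26 it had 123 CPM in KO against 274 CPM in WT. Slc44a2 and Slc25a37, the mitochondrial iron importer mitoferrin 1, were likewise below 0 and not called.

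In monocyte-like cells the other calls were spread over several roles. Of 11 chloride, bicarbonate and sulfate carriers 3 were called higher and 1 lower. Slc26a2, a sulfate importer, had 162 UMIs in KO and 61 UMIs in WT, a log2 ratio of 0.64 (0.21 to 1.09), and Slc12a9, of the cation chloride family, 36.9 CPM in KO against 24.4 CPM in WT, 0.60 (0.17 to 1.04). Slc44a2 had 76.6 CPM (332 UMIs) in KO against 50.4 CPM (128 UMIs) in WT, 0.60 (0.31 to 0.91). Of 29 mitochondrial carriers Slc25a22, Slc25a24, Slc25a28 and Slc25a30 were called higher. Slc16a6, Slc9a8, Slc5a3, Slc2a9 and Slc12a2 were called higher too. The members called lower were Slc17a9, the vesicular nucleotide transporter, at 1.61 CPM (7 UMIs) in KO against 7.87 CPM (20 UMIs) in WT, and Slc20a2, Slc26a11, Slc35a1, Slc39a10 and the antisense RNA Slc36a3os, each under 25 CPM. The lowest ratios at 20 CPM or more, none of them called, belonged to Slc25a36, Slc50a1, Slc4a7, Slc38a10 and Slc9a3r1; Slc50a1 had 42.2 CPM in KO against 53.5 CPM in WT.

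Lists of other transport genes were read against the same shares of all genes, 6.46% higher and 6.14% lower in macrophage-like cells and 6.01% and 6.41% in monocyte-like cells; each list is short, so its share rests on a few genes. Of carriers without an Slc symbol, 2 of 22 were called higher in macrophage-like cells (Mfsd5 and Mfsd12) and 0 lower, and 4 of 21 higher (Mtch1, Mfsd14a, Mfsd5 and Flvcr1) and 1 lower (Slco3a1) in monocyte-like cells. Of accessory and regulatory proteins of carriers, 3 of 17 were called higher in macrophage-like cells and 0 lower: Cd44, which stabilises Slc7a11 at the surface, at 894 CPM in KO against 605 CPM in WT, and the folliculin complex genes Fnip1 at 86.8 CPM in KO against 60.3 CPM in WT and Flcn at 23.2 CPM in KO against 13.2 CPM in WT. In monocyte-like cells Cd44, Rragc and Flcn were called higher of 16, and 0 lower. Of 7 potassium channel genes in macrophage-like cells 0 were called higher, and Kcnab2 and Kcnj2 lower. Kcnq1ot1 and Kcnj2 were called lower of 5 in monocyte-like cells.

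**Figure D5:**
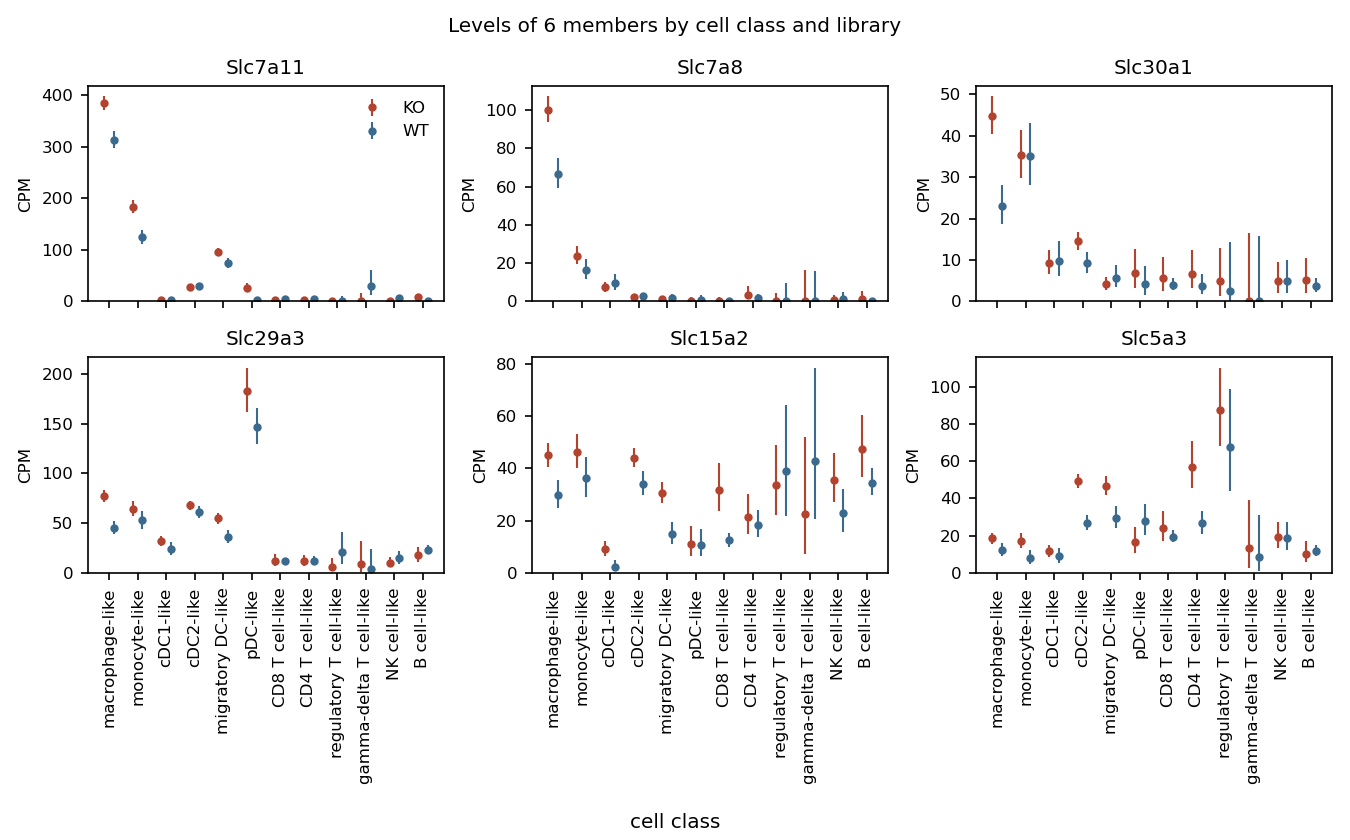
Levels in CPM of Slc7a11, Slc7a8, Slc30a1, Slc29a3, Slc15a2 and Slc5a3 in 12 classes with at least 50 cells in both libraries, with KO (red) left of WT (blue) and exact 95% counting intervals as bars. Slc30a1 is at 44.8 CPM in KO against 22.96 CPM in WT macrophage-like cells and Slc7a8 at 100.3 CPM in KO against 66.7 CPM in WT, while both are low in lymphoid classes.

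Among the dendritic classes, migratory DC-like cells had the most calls, 14 higher and 10 lower of 150 members, against 4.88% higher and 7.30% lower of 11118 genes. Slc7a1, a carrier of arginine and other cationic amino acids, had 52.1 CPM (371 UMIs) in KO against 25.3 CPM (86 UMIs) in WT, a log2 ratio of 1.04 (0.70 to 1.39). Slc15a2 had 30.6 CPM in KO against 14.7 CPM in WT, 1.05 (0.60 to 1.53), and the magnesium carrier Slc41a1 had 52.1 CPM in KO against 31.8 CPM in WT, 0.71 (0.40 to 1.03). Slc38a1 had 138 CPM in KO against 87.2 CPM in WT, 0.66 (0.47 to 0.85). Among members called lower, Slc25a10, the dicarboxylate carrier, was at 19.8 CPM in KO against 28.6 CPM in WT, Slc44a2 at 18.2 CPM in KO against 27.1 CPM in WT and Slc8b1 at 12.3 CPM in KO against 20.6 CPM in WT. The call of Slc25a10 was lost in 5 of 10 alternatives, with log2 ratios of -0.58 to -0.06. At a Leiden resolution of 0.6 the class had 7 higher and 5 lower of 136 members, against 4.27% and 6.26% of all genes. In these cells the cDC2 markers summed to 2754 CPM in KO against 1737 CPM in WT and the T cell markers to 180 CPM in KO against 394 CPM in WT, and their part in the ratios was not tested.

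In cDC2-like cells 7 members of 161 were called higher and 3 lower, against 4.01% and 4.92% of 12032 genes. Slc5a3 had 49.3 CPM (644 UMIs) in KO against 27.01 CPM (174 UMIs) in WT, a log2 ratio of 0.87 (0.62 to 1.12), and Slc30a1 had 14.5 CPM in KO against 9.16 CPM in WT, 0.66 (0.23 to 1.11). Slc38a1 had 281 CPM in KO against 211 CPM in WT, 0.41 (0.32 to 0.51), not called, and Slc25a36, a mitochondrial carrier of pyrimidine nucleotides, had 25.7 CPM in KO against 34.9 CPM in WT, not called. Erythroid markers summed to 0.23 CPM in KO against 554 CPM in WT cDC2-like cells, and their part was not tested. In cDC1-like cells 4 of 140 members were called higher and 1 lower, against 3.38% and 3.47% of 10163 genes; Slc15a2 had 9.01 CPM (43 UMIs) in KO against 2.11 CPM (5 UMIs) in WT, and Slc39a1, a zinc importer, had 28.1 CPM in KO against 18.999 CPM in WT. With the mean over cells in place of summed UMIs, cDC1-like cells had 12 members higher and 19 lower, against 7.05% and 10.6% of all genes. Their 7 T cell markers summed to 10.7 CPM in KO against 152 CPM in WT, and the part of these was not tested. In pDC-like cells 5 of 120 members were called higher and 3 lower, against 3.91% and 3.79% of 9083 genes. Slc7a11 had 26.2 CPM (38 UMIs) in KO against 3.54 CPM (6 UMIs) in WT pDC-like cells, a log2 ratio of 2.89 (1.64 to 4.42), but all of these UMIs came from at most 5 cells in each library. Slc9a9, an endosomal sodium proton exchanger, had 59.3 CPM in KO against 41.8 CPM in WT pDC-like cells, a call lost in 6 of 10 alternatives. Slc38a10, lower, had 19.3 CPM in KO against 34.2 CPM in WT. The 7 T cell markers summed to 50.4 CPM in KO against 536 CPM in WT pDC-like cells, with none at 0, and their part was not tested.

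The CD8 T cell-like class had 4 higher and 6 lower of 143 members, against 5.43% and 3.68% of 10892 genes. That balance turned to 8 higher and 3 lower when counts were scaled without mitochondrial and ribosomal protein genes, against 7.12% and 2.37% of all genes. With components centred per library it was 7 higher and 4 lower of 142 members, against 6.19% and 3.06% of all genes. Slc15a2 had 31.8 CPM (51 UMIs) in KO against 12.4 CPM (99 UMIs) in WT, a log2 ratio of 1.36 (0.84 to 1.86), and Slc36a3os had 8.74 CPM in KO against 28.2 CPM in WT. Slc25a5, at 362 CPM in KO against 496 CPM in WT, -0.45 (-0.58 to -0.33), was not called. CD4 T cell-like cells had 4 higher and 6 lower of 131 members, against 4.33% and 3.08% of 9626 genes. There Slc5a3 had 57.2 CPM (85 UMIs) in KO against 26.6 CPM (78 UMIs) in WT, 1.10 (0.64 to 1.57), and Slc7a1 had 38.3 CPM in KO against 24.2 CPM in WT. The glucose transporter Slc2a3 had 45.7 CPM in KO against 66.5 CPM in WT, -0.54 (-0.96 to -0.13), and the purine nucleoside importer Slc28a2 had 35.6 CPM in KO against 52.5 CPM in WT, -0.56 (-1.04 to -0.10). The 4 erythroid markers were all at 0 in KO and summed to 547 CPM in WT CD4 T cell-like cells. NK cell-like cells had 2 higher and 4 lower of 119 members, against 2.62% and 4.13% of 9040 genes; Slc25a46 had 35.1 CPM in KO against 18.1 CPM in WT, and Slc25a20, the carnitine and acylcarnitine carrier, had 39.9 CPM in KO against 23.7 CPM in WT. In NK cell-like cells the 7 T cell markers summed to 1454 CPM in KO against 2117 CPM in WT, the 6 neutrophil markers to 6.05 CPM in KO against 239 CPM in WT and the 6 B cell markers to 9.67 CPM in KO against 131 CPM in WT. The part of these markers in the ratios was not tested.

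B cell-like cells had 6 higher and 9 lower of 138 members, against 4.49% and 7.39% of 10559 genes. The class joins 2 clusters that the libraries fill differently: cluster 1 had 330 KO and 911 WT cells, and cluster 11, led by Sox5, Fcrl5 and Igha, had 18 KO and 442 WT cells. Slc17a9 had 8.75 CPM in KO against 54.0 CPM in WT over the class, a log2 ratio of -2.62 (-3.59 to -1.80), and 7.81 CPM in KO against 22.8 CPM in WT within cluster 1, -1.54 (-2.74 to -0.53). Slc7a7, a light chain of Slc3a2, had 4.38 CPM in KO against 30.5 CPM in WT over the class and 2.60 CPM in KO against 6.50 CPM in WT within cluster 1, where it was not called. Without cluster 11 the count was 2 higher and 6 lower of 113 members, against 2.74% and 3.69% of all genes. Of the members called higher, Slc3a2 had 193 CPM in KO against 131 CPM in WT, and Slc4a7 had 134 CPM in KO against 87.4 CPM in WT over the class. Within cluster 1 Slc4a7 had 148 CPM in KO against 127 CPM in WT and was not called, and Slc9a7, called over the class, had 53.8 CPM in KO against 39.02 CPM in WT and was not called. Plasma cell markers summed to 4273 CPM in KO against 1683 CPM in WT B cell-like cells, and their part was not tested.

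Across the 10 classes, all of which compare the same 2 libraries, 95 members were called in at least 1 class and 27 in at least 2. The same counts over all genes were not made, so these numbers do not set the members apart from other genes. Slc15a2 had a ratio above 0 in 10 of 10 classes and was called higher in 4, with log2 ratios of 0.06 to 2.09 and a median of 0.53. In the smaller regulatory T cell-like class, which was not compared, it had 33.7 CPM in KO against 38.9 CPM in WT. Slc5a3 was called higher in 5 classes and lower in pDC-like cells. Slc3a2 was above 0 in 10 of 10 classes and called in 1. In the other direction, Slc35a1, the Golgi carrier of CMP-sialic acid, and Slc39a10, a zinc importer, were below 0 in 10 of 10 classes. They were called in 1 and 2. Slc17a9 was below 0 in 8 of 8 and called in 2. Slc20a2 was called lower in 4 classes but was above 0 in 3 of 10. These genes were picked after their values were seen, and the classes share their libraries, so the count of classes is no count of replicates.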

How the data were processed

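The study's 2 libraries are 10x 3' v3 single-cell libraries of CD45+ tumour cells, 1 per genotype, each from 3 pooled mice, so no test between genotypes was made. The deposited matrices hold the authors' raw UMI counts per gene and barcode; they were made with Cell Ranger on GRCm38 (version 3.1.0 per the submitters' processing notes, 4.0.0 per the file headers), and the lowest barcode holds 500 UMIs. Barcodes under 200 genes or over 15% mitochondrial UMIs were removed. Scrublet marked and removed 6 KO cells and 1 WT cell, too few for it to have worked as a doublet filter, so doublets may remain; removing the top 6% of scores was an alternative. Counts were scaled to 10000 per cell, and 2000 variable genes without any Slc gene, 30 components, 15 neighbours and Leiden clustering (resolution 1, seed 1; scanpy 1.11.5, leidenalg 0.10.2, Python 3.11.15) gave clusters, named from at least 3 markers detected in 10% of cells or more.

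UMIs were summed per class and library. Levels have exact Poisson intervals and ratios exact conditional binomial intervals (scipy 1.17.1, 95%); 3 counts served as the floor. The call rule was tested on simulated data. Classes needed 100 cells in each library for a comparison and 50 for a level. The text names the 15 members with most UMIs, 3 per class by preference, the 5 highest and 5 lowest ratios in macrophage- and monocyte-like cells and 3 and 3 elsewhere (mean of at least 20 CPM), the 3 members on either side of 200 UMIs, Kcnj2 and called list genes; other genes were named after their values were seen. Single values of some genes that this rule names are not reported here. Members, gene lists and markers were chosen with earlier results of these data known. Promoter sequences are from RefSeq (GRCm38.p6); 127 of 172 members were matched.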

Additional observations from a re-analysis of the deposited data

Results flagged for a closer look

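Of the 95 members called in any class, 9 were called higher in KO in 1 class and lower in another. The share of all genes with such opposite calls was not counted. With 1 library per genotype the difference between classes was not tested, and many of the UMI counts are small. Slc5a3, the myo-inositol carrier, had log2 ratios of 1.12 in monocyte-like, 1.10 in CD4 T cell-like, 0.87 in cDC2-like, 0.67 in migratory DC-like and 0.60 in macrophage-like cells, against -0.74 in pDC-like cells. Slc44a2, the choline transporter-like protein, had 0.60 in monocyte-like and -0.57 in migratory DC-like cells. Slc16a10, the aromatic amino acid transporter, had 0.59 in monocyte-like cells and -2.33 in CD8 T cell-like cells, the second from 2 UMIs in KO and 50 UMIs in WT. Slc36a1, the lysosomal amino acid exporter, had 0.57 in macrophage-like cells and -2.19 in CD4 T cell-like cells, the second from 2 UMIs in KO and 18 UMIs in WT. Slc25a28, the mitochondrial iron importer mitoferrin 2, had 0.54 in monocyte-like cells, -0.80 in B cell-like cells and -1.12 in NK cell-like cells. Slc37a3 had 0.66 in macrophage-like and -0.65 in cDC2-like cells, and Slc25a45 had 0.50 in cDC1-like cells, a call lost in 5 of 10 alternatives, and -0.67 in CD8 T cell-like cells. Slc7a6, a light chain of Slc3a2, had 0.99 in migratory DC-like and -1.78 in B cell-like cells, and the antisense RNA Slc36a3os had 0.70 in migratory DC-like, -0.77 in monocyte-like and -1.69 in CD8 T cell-like cells.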

How the results depend on the processing

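In macrophage-like cells 17 members were called higher and 6 lower. With a log2 limit of 1, 2 members were higher and 4 lower, so lower calls outnumbered higher ones, and neither share was above that of all genes (1.94% and 3.02%). With the mean over cells in place of the summed UMIs 26 were higher and 8 lower, while the shares of all genes were 8.47% and 8.70%. With at least 100 UMIs per gene 14 of 105 members were higher and 2 lower, against 7.10% and 4.72% of all genes. With components centred per library 15 of 157 were higher and 10 lower, against 5.84% and 9.49% of all genes. In monocyte-like cells, with 16 higher and 6 lower, a limit of 1 gave 4 higher and 3 lower, against 1.55% and 3.19% of all genes. At least 100 UMIs gave 2 lower of 73, against 5.06% of all genes. Slc genes among the variable genes gave 2 lower of 132, against 4.89%. Removal of the top 6% of doublet scores gave 3 lower of 141, against 4.73%. The same lineage led in both libraries for 80 of the 109 members with at least 1000 UMIs, against 129 of all 172. Slc44a2 in monocyte-like cells reversed to -0.0043 at resolution 0.6, where macrophage-like cells merged into that class. Of 670 values of single genes, that one included, 599 kept their direction and side of the limit, 44 lost a call, 21 gained one and 5 values that were not called changed sign. Slc30a1, Slc35b2, Slc29a3, Slc15a2 and Slc7a8 kept their macrophage calls in the 9 alternatives of scaling, cells and clusters that gave a value, with Slc30a1 between 0.79 and 1.19, but each has a log2 ratio under 1 and is not called at the limit of 1. Over all alternatives the counts higher and lower ran from 1 to 12 and 0 to 19 in cDC1-like cells, 1 to 9 and 1 to 9 in cDC2-like, 6 to 17 and 4 to 14 in migratory DC-like, 1 to 6 and 0 to 6 in pDC-like, 2 to 8 and 3 to 7 in CD8 T cell-like, 2 to 6 and 2 to 6 in CD4 T cell-like, 0 to 6 and 0 to 10 in NK cell-like and 0 to 7 and 5 to 18 in B cell-like cells. The cause of these changes was not tested, apart from limits that leave fewer genes. The shares of all genes changed with the setting too, in B cell-like cells from 3.69% to 11.4% lower. The ranges alone therefore do not set the members apart from all genes. Depth limits the comparison to members with at least 20 UMIs in a class, which left 153 of 172 in macrophage-like and 119 in NK cell-like cells. No paired analysis was possible because each genotype has 1 library.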
